A study of Arabidopsis thaliana with 15 samples.

Results

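The NRT2 family encodes the high-affinity nitrate transporters of Arabidopsis thaliana, and its 7 genes, NRT2.1 to NRT2.7, were taken by locus from the TAIR10.1 annotation, out of 27444 nuclear protein coding genes. The study mapped a pair of Polycomb marks, H2AK121ub and H3K27me3, by chromatin immunoprecipitation and sequencing in whole seedlings at 10 days after germination, grown in long days on MS agar with sucrose. There were 14 ChIP libraries, 2 replicates for each of 7 groups, and 1 wild-type input, made from Col-0 wild type and the emf1, ring1ab and lhp1 mutants, which are in the Col-0 strain. The files analysed here were 2 lists of wild-type consensus peaks, 1 per mark, which carry positions and no signal, so no mutant library was analysed here. The groups used are therefore H2AK121ub and H3K27me3 in the Col-0 wild type, with no mutation or treatment. The study's methods combine wild-type peaks of an earlier age with these, and whether the deposited lists do so is not settled by the files.

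NRT2 proteins carry nitrate across membranes when it is scarce, and most of them work with a small partner protein, NRT3.1. NRT2.1 is the main high-affinity uptake transporter of the root and is induced by nitrate and repressed when nitrogen is plentiful. NRT2.2 adds to uptake, NRT2.4 and NRT2.5 act in nitrogen-starved plants, and NRT2.7 loads nitrate into the vacuoles of seeds. H2AK121ub, a ubiquitin on histone H2A, is set by Polycomb repressive complex 1 (PRC1), and H3K27me3, a methylation of histone H3, by PRC2. NRT2.1 is known as a PRC2 target in roots, and MS medium supplies nitrate as well as ammonium.

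The lists held 16310 H2AK121ub peaks and 4367 H3K27me3 peaks, which covered 20.3% and 15.9% of the nuclear genome. By the study's methods each list keeps the intersection of the peaks found in the replicates, with no values per replicate, so no spread between plants and no read depth can be given, and no test was made. A gene without a peak is a gene without a shared call, and a peak seen in a single replicate would not be listed. Seedlings mix root and shoot, so marks on the same bases may lie in the same or in different cells, which cannot be told apart.

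A gene was called marked when a peak touched the annotated gene or the window of 750 bp before the transcription start site (TSS). This is the overlap rule of the study without its filter on genes of low signal, which could not be applied to lists that hold no signal. All 7 NRT2 genes carried at least 1 mark. NRT2.1, NRT2.2, NRT2.3 and NRT2.4 were H2AK121ub/H3K27me3 genes, NRT2.5 and NRT2.7 were only-H2AK121ub, and NRT2.6 was only-H3K27me3. The only-H2AK121ub class held 43.9% and the only-H3K27me3 class 4.93% of all protein coding genes. H2AK121ub was thus called on 6 of the 7, beside 68.1% of all protein coding genes, and H3K27me3 on 5 of the 7, beside 29.2%. Both marks were called on 4 of the 7, beside 24.2% of all protein coding genes. The share of all protein coding genes with neither mark was 26.9%, and no NRT2 gene was in that class. The 4 genes with both marks are the 4 that stand in adjacent pairs, and neighbours in a pair can share a peak, so the 7 genes are not 7 independent cases.

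**Figure D1:**
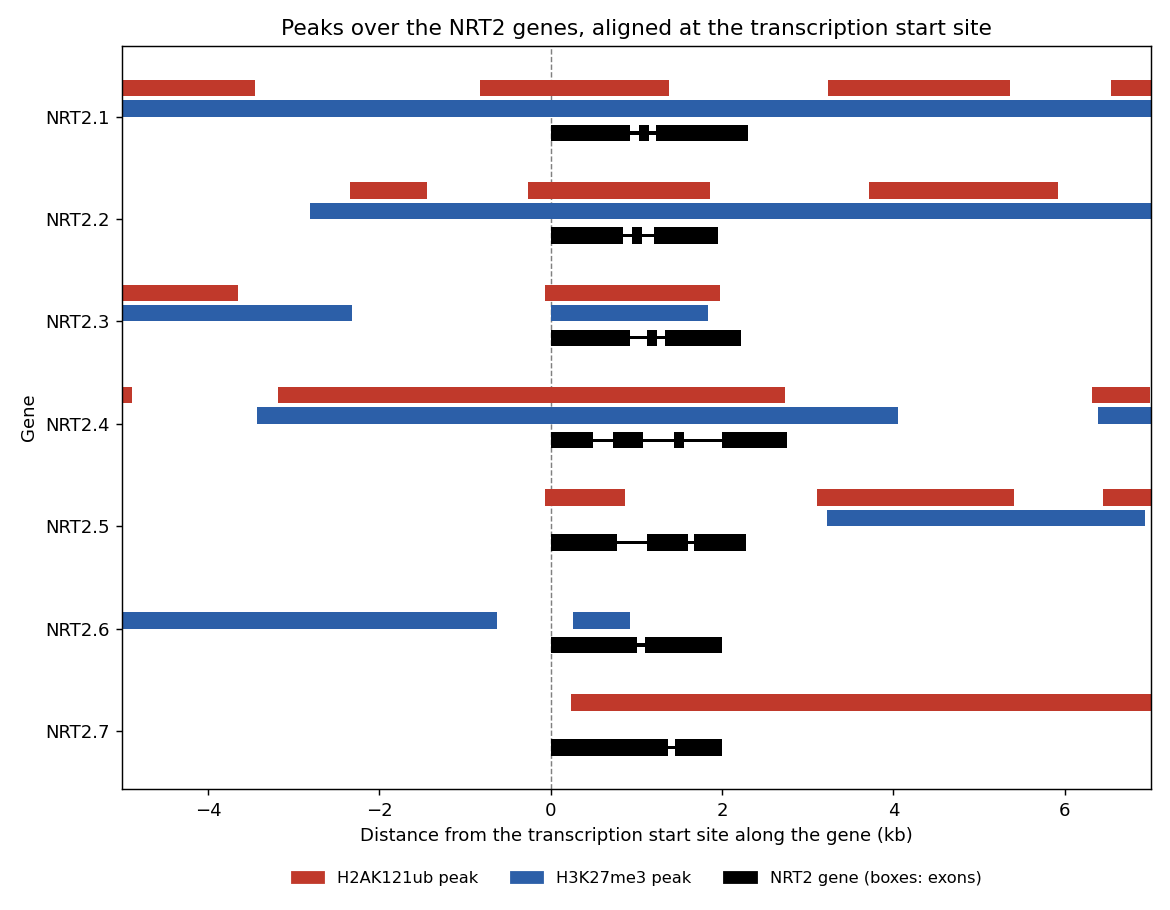
H2AK121ub peaks (red) and H3K27me3 peaks (blue) over each NRT2 gene, with its exons as black boxes; the horizontal axis is the distance from the TSS in kb along the direction of the gene and each row is 1 gene. H2AK121ub spans the TSS of NRT2.1 to NRT2.5, lies downstream of it in NRT2.7 and is not in the window of NRT2.6.

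The sequences below show where the upstream end of H2AK121ub falls in the 3 genes in which it lies within the 300 bases before the TSS. Each run is the 300 bases before the TSS (RefSeq, TAIR10.1), 5′ to 3′ on the strand of the gene, with the bases under an H2AK121ub peak in capitals. NRT2.2 is read from chr1:2529121-2529420 on the minus strand and has 260 capital bases. NRT2.3 is read from chr5:24450445-24450744 on the plus strand and has 63. NRT2.5 is read from chr1:4416015-4416314 on the plus strand and has 62.
NRT2.2: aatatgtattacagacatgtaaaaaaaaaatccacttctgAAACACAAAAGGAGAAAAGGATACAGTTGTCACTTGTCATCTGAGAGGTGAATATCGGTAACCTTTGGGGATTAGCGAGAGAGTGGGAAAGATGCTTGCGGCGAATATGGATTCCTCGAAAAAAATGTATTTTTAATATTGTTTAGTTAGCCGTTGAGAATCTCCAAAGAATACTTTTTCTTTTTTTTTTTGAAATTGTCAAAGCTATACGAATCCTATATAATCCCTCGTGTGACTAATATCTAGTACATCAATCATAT
NRT2.3: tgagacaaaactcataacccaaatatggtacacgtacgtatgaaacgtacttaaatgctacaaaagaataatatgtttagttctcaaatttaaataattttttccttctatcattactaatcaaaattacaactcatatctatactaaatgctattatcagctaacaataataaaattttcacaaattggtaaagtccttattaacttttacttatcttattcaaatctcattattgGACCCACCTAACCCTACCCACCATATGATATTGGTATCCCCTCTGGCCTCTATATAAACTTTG
NRT2.5: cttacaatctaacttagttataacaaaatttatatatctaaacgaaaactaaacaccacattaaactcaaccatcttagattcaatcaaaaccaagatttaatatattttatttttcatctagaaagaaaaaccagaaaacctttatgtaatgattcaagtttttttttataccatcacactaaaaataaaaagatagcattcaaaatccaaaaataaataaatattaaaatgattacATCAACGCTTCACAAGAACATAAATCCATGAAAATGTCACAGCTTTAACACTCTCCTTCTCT

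A peak end is given to the base in the list, but it comes from fragments of sheared chromatin and from the intersection of replicates, so it is less exact than the printed base. In NRT2.3 and NRT2.5 the capitals take in the stretch just before the TSS and little else of the promoter. Of all protein coding genes, 4.81% had an H2AK121ub peak over the body that began 1 to 100 bp before the TSS, a window chosen after these ends were seen.

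These promoters were also searched, on both strands, for 5 short motifs, none of which contains another. The core GAATC, bound by the NIGT1 repressors of nitrate genes, was found in 4 of the 7 NRT2 promoters, beside 45% of all promoters of that length. In NRT2.2 its 3 matches began 151, 103 and 50 bases before the TSS, within the capitals, while in NRT2.5 the 2 matches began 222 and 148 bases before it, outside them. The GA repeat GAGAGA was found in NRT2.1 and NRT2.2 alone among the 7, and in 23.6% of all promoters. In NRT2.2 it began 184 bases before the TSS and in NRT2.1, whose whole promoter window lay under H2AK121ub, 102 bases before it. The TGA factor core TGACG was found in NRT2.1 and NRT2.7, and in 21.3% of all promoters. The telobox AAACCCTA, a motif known from Polycomb targets in Arabidopsis, and the G-box CACGTG were in 0 of the 7 windows, beside 5.21% and 7.09% of all promoters. NRT2.3 and NRT2.6 held none of the 5 motifs. A match describes letters and does not show binding.

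NRT2.1 and NRT2.2 lie tail to tail on chromosome 1, and both were H2AK121ub/H3K27me3 genes. NRT2.1 (AT1G08090, chr1:2524023-2526322, plus strand, 3 exons) and NRT2.2 (AT1G08100, chr1:2527170-2529120, minus strand, 3 exons) are separated by a spacer of 847 bp. A single H3K27me3 peak of 14954 bp (chr1:2516978-2531931) held both bodies, the spacer and both upstream windows, and 3.32% of all H3K27me3 peaks were at least as long. It began 7045 bp before the TSS of NRT2.1, where it also overlapped ACA7, an alpha carbonic anhydrase gene, and ended 2811 bp before the TSS of NRT2.2. Of all 4079 adjacent convergent protein coding pairs, 5.93% lay wholly within 1 H3K27me3 peak, as did 5.23% of all adjacent pairs.

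H2AK121ub was broken up within this domain. A peak of 2202 bp (chr1:2523199-2525400) ran from 824 bp before the TSS of NRT2.1 to 1377 bp into the gene and covered 59.9% of its body. A separate peak of 2124 bp (chr1:2527257-2529380) ran from 260 bp before the TSS of NRT2.2 to 1863 bp into the gene and covered 95.5% of its body. The spacer between the genes had no base under H2AK121ub, while H3K27me3 covered 100% of it. Over the block of 6598 bp, from one upstream window to the other, H2AK121ub covered 64.4% and H3K27me3 100%. In both genes H2AK121ub thus lay over the start of the gene, within a continuous H3K27me3 peak. It left the last 922 bases of NRT2.1 uncovered and only the last 87 of NRT2.2, a short gap for a peak end that is less exact than the printed base.

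**Figure D2:**
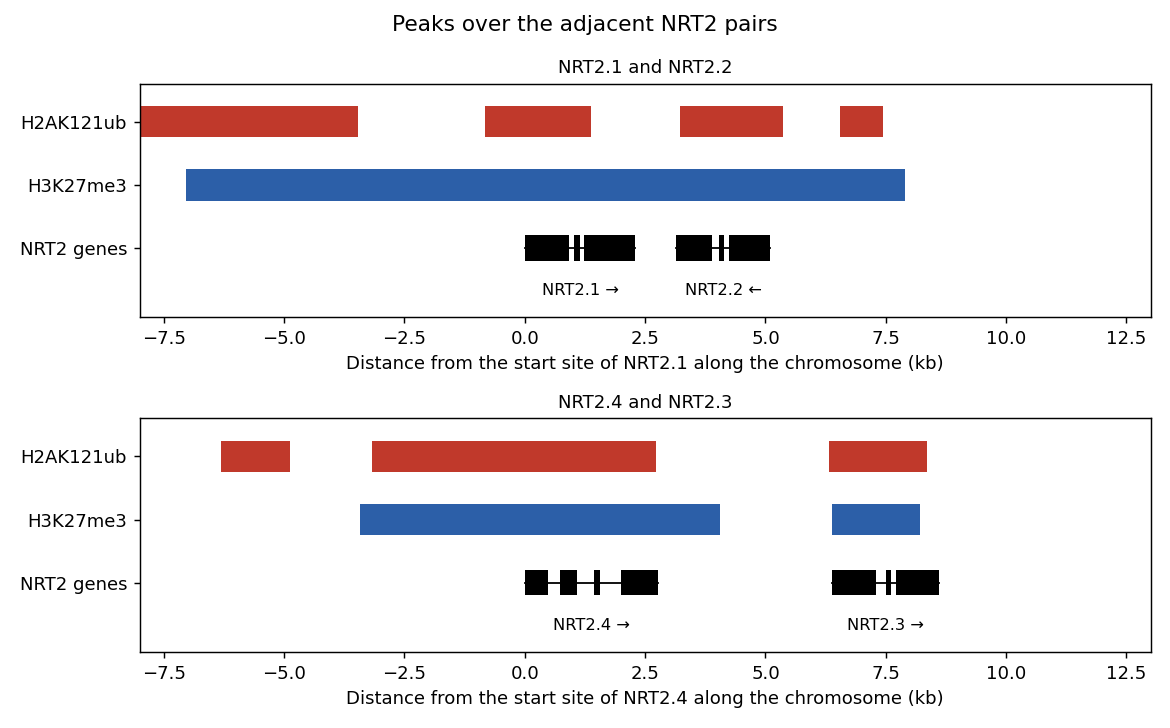
Peaks over the adjacent pairs NRT2.1 and NRT2.2 (top) and NRT2.4 and NRT2.3 (bottom), with exons as black boxes and arrows for the direction of each gene; the horizontal axis is the distance in kb from the start site of the left gene along the chromosome. One H3K27me3 peak of 14954 bp holds the upper pair, while the lower pair lies under 2 H3K27me3 peaks of 7485 and 1829 bp.

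In NRT2.1 the first exon (926 bp), the second exon (116 bp) and both introns were fully under H2AK121ub, but only 13.8% of the last exon and none of the 3′ untranslated region. The peak ended in the coding part of that exon. The 60 bases on each side of that end are shown (chr1:2525341-2525460, plus strand), with the bases under H2AK121ub in capitals, to place it in the coding sequence. All of these bases are under H3K27me3.
NRT2.1: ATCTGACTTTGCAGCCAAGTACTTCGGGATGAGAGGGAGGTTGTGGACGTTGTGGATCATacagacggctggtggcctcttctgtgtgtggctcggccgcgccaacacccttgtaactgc

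In NRT2.2, H2AK121ub went on to the end of the coding sequence, of which it covered 100%, and 88.4% of the last exon. The proteins of the pair were 88.3% identical over 522 aligned residues, and their coding bases 89.5% identical. Reads from such close copies can be hard to place. Of all 100-base words, 96.8% in the body of NRT2.1 and 96.2% in that of NRT2.2 were found once in the genome, and 100% in the upstream windows of both. In each of the other 5 genes, 100% of the words of the body and upstream window were found once.

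The pair on chromosome 5 carried both marks too, but with a gap between its genes. NRT2.4 (AT5G60770, chr5:24444365-24447127, 4 exons) precedes NRT2.3 (AT5G60780, chr5:24450745-24452964, 3 exons) on the plus strand, with a spacer of 3617 bp. NRT2.4 had the most complete cover of the family. An H2AK121ub peak of 5917 bp (chr5:24441181-24447097) covered 98.9% of its body and 100% of its upstream window, and an H3K27me3 peak of 7485 bp (chr5:24440938-24448422) covered 100% of both. The H2AK121ub peak ranked among the long ones, with 2.01% of all H2AK121ub peaks at least as long. Both peaks began far before the TSS, at 3184 bp for H2AK121ub and 3427 bp for H3K27me3, and reached the end of the neighbour AT5G60760.

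NRT2.3 had a pair of shorter peaks with similar ends. Its H2AK121ub peak of 2037 bp (chr5:24450682-24452718) began 63 bp before the TSS and ended 1973 bp after it, over 88.9% of the body. Its H3K27me3 peak of 1829 bp (chr5:24450753-24452581) began 8 bp after the TSS and ended 1836 bp after it, over 82.4% of the body, with every base also under H2AK121ub. H3K27me3 therefore did not cover the TSS or any base of the 750 bp upstream, in contrast to NRT2.1, NRT2.2 and NRT2.4, in which it covered 100% of both the body and that window. The latter state was found in 9.21% of all protein coding genes. The H3K27me3 peak of NRT2.3 was also short for that mark, with 66.8% of H3K27me3 peaks at least as long.

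In the spacer of this pair, H3K27me3 ran on for 1295 bp (35.8%) behind NRT2.4, and H2AK121ub covered 63 bp (1.74%), all of it just before NRT2.3. Over the block of 9350 bp, H2AK121ub covered 59% and H3K27me3 71.0%. Downstream, ABCF1, a gene of the ABC transporter family, faces NRT2.3 across 293 bp and carried neither mark. Of the 13763 non-overlapping adjacent protein coding pairs on the same strand, 6.09% lay wholly within 1 H3K27me3 peak. NRT2.4 with NRT2.3 was not among these 6.09%. Both genes of a pair carried both marks in 13.5% of the 23909 non-overlapping adjacent pairs.

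**Figure D3:**
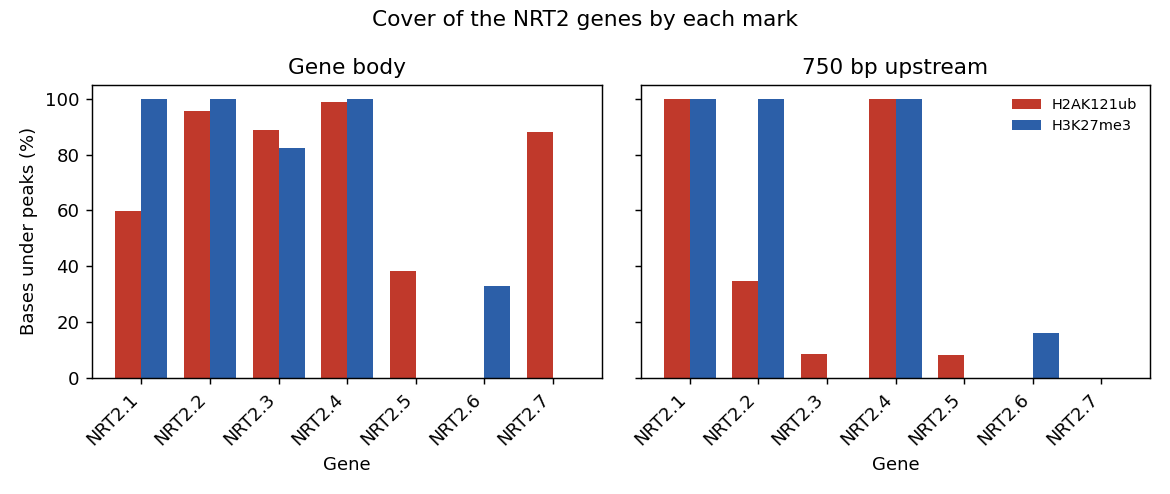
Share of bases under H2AK121ub (red) and H3K27me3 (blue) peaks, in percent, for the gene body (left) and the 750 bp upstream (right) of each NRT2 gene; each bar comes from a consensus peak list and has no error bar. H3K27me3 covers 100% of the bodies of NRT2.1, NRT2.2 and NRT2.4, 82.4% of NRT2.3 and 33.0% of NRT2.6.

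NRT2.5 and NRT2.7, which stand apart from other family members, carried H2AK121ub and no H3K27me3, in different places. NRT2.5 (AT1G12940, chr1:4416315-4418590, plus strand, 3 exons) had a peak of 933 bp (chr1:4416253-4417185), near the median H2AK121ub length of 978 bp. It covered 38.3% of the body, namely the complete first exon (777 bp) and 94 bp of the intron after it, and no base of the other exons. Both marks then lay downstream of the gene. An H2AK121ub peak of 2290 bp began 838 bp and an H3K27me3 peak of 3714 bp (chr1:4419535-4423248) began 945 bp after the end of NRT2.5. The latter held the whole of RSH2, annotated as root hair specific, and AT1G12960. On the upstream side, the nearest H3K27me3 peak was 33488 bp away.

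NRT2.7 (AT5G14570, chr5:4695084-4697078, minus strand, 2 exons) lay under the end of an H2AK121ub peak of 6956 bp (chr5:4689889-4696844), a length reached by 1.10% of H2AK121ub peaks. The peak left the TSS free. It began 234 bp into the gene, covered 88.3% of the body and all of the 3′ untranslated region, and ran on to 7189 bp from the TSS. Genes with H2AK121ub whose TSS was not under it made up 37.9% of all protein coding genes. Within that peak lay AT5G14550 and the microRNA genes MIR398b and MIR398c, which target copper superoxide dismutase transcripts, each with 100% of its body covered. The nearest H3K27me3 peak was 25362 bp from the upstream window.

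NRT2.6 (AT3G45060, chr3:16477561-16479559, minus strand, 2 exons) was the one member without H2AK121ub. The nearest H2AK121ub peaks were 5167 bp from the end of the gene and 6583 bp from its TSS. No base of the body or the 5 kb on each side was under that mark, which was so for 6.63% of all protein coding genes. Its body held an H3K27me3 peak of 659 bp (chr3:16478638-16479296), from 263 to 921 bp after the TSS, over 33.0% of the body. Only 8.77% of H3K27me3 peaks were no longer than this. A second H3K27me3 peak, of 9945 bp (chr3:16480190-16490134), ended 631 bp before the TSS and covered 16.0% of the upstream window. The neighbours AT3G45050 and AT3G45040, on the other side, carried neither mark.

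The short H3K27me3 peak of NRT2.6 lay wholly in the coding part of the first exon and covered 40.5% of the coding sequence. Its ends are shown with 60 bases on each side and the bases under H3K27me3 in capitals, 5′ to 3′ on the minus strand, first the end near the TSS (chr3:16479237-16479356) and then the end within the exon (chr3:16478578-16478697).
NRT2.6 start: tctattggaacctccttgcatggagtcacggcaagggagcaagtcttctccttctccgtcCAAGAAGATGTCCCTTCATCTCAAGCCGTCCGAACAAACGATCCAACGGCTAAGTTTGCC
NRT2.6 end: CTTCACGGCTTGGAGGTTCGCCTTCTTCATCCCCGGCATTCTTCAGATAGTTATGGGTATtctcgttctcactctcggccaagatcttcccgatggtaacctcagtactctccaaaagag

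H2AK121ub lay over the start of most NRT2 genes, with NRT2.7, in which it began after the TSS, and NRT2.6, which had none, as the exceptions. It covered the TSS in 5 of the 7 (NRT2.1 to NRT2.5), beside 30.2% of all protein coding genes, and in these 5 it covered the 5′ untranslated region and the first exon completely. A first exon wholly under H2AK121ub was found in 23.4% of all protein coding genes, and a 5′ untranslated region wholly under it in 29.3% of those with one annotated. In these 5 genes both parts begin at the TSS, so these counts are not separate from that of the covered TSS. In the same 5 genes the last base of the gene was not under H2AK121ub, and a covered TSS with an uncovered last base was found in 20.7% of all protein coding genes. The mark left 30 bases at the end of the gene uncovered in NRT2.4, 87 in NRT2.2, 246 in NRT2.3, 922 in NRT2.1 and 1405 in NRT2.5. The shorter of these gaps may not be resolved, since a peak end is less exact than the printed base. H3K27me3 covered the TSS in 3 of the 7 (NRT2.1, NRT2.2 and NRT2.4), beside 17.7% of all protein coding genes. NRT2.3 was left out of this count by a peak that began 8 bp after its TSS, a distance that a peak end may not resolve. The percentage of protein coding genes whose H2AK121ub body cover was no higher was 91.3% for NRT2.4, 89.6% for NRT2.2, 86.0% for NRT2.3, 85.7% for NRT2.7, 74.1% for NRT2.1, 66.1% for NRT2.5 and 38.9% for NRT2.6, which had no cover. No NRT2 body was fully under H2AK121ub, beside 8.33% of all protein coding genes, and 3 of the 7 were fully under H3K27me3, beside 12.2%.

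The marks did not follow sequence likeness throughout. Over the 21 pairs of NRT2 proteins, identity ranged from 46.8% to 89.8%, with a median of 57.8%. The closest pair of proteins was NRT2.3 with NRT2.6 (89.8% over 539 aligned residues), from genes on different chromosomes. In coding bases this pair was 82% identical, below the 89.5% of NRT2.1 with NRT2.2. NRT2.3 carried both marks and NRT2.6 only H3K27me3. H2AK121ub covered 88.9% of the body of NRT2.3 and none of NRT2.6. All 100-base words of both genes were found once in the genome, which does not show how reads were placed. The source of the difference was not tested. The next pair of proteins, NRT2.1 with NRT2.2, came from genes that each carried both marks. NRT2.4 was nearer in sequence to NRT2.1 (83.3%) than to its neighbour NRT2.3 (72.4%). NRT2.7, with 46.8% to 51.2% identity to the others, and NRT2.5, with 51.2% to 57.8%, were the most distant proteins and the ones whose genes had no H3K27me3. These are 7 related genes, and no test was made of this.

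**Figure D4:**
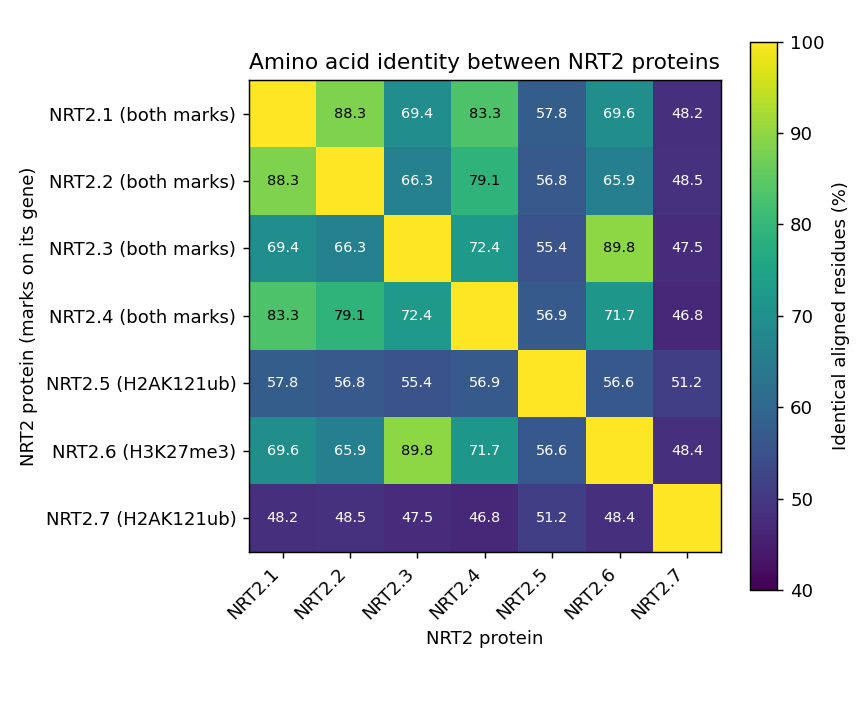
Amino acid identity, in percent of aligned residues, between each 2 NRT2 proteins translated from the annotated coding sequences, with the marks called on each gene beside its name; yellow is high and dark blue low. NRT2.3 and NRT2.6 share 89.8% of residues but not their H2AK121ub call.

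Other genes of nitrate transport and use were placed beside the family from 5 lists, in which 42 of the 43 loci were in the annotation. Of these 42, H2AK121ub was called on 38 and H3K27me3 on 15, beside 68.1% and 29.2% of all protein coding genes. The partner gene NRT3.1 (WR3, AT5G50200) carried both marks, with H3K27me3 over 100% of its body and upstream window and H2AK121ub over 96.3% of its body and no base upstream. The NPF family holds the low-affinity nitrate transporters and carriers of other compounds. Among 11 of its genes, beside the same 68.1% and 29.2% of all protein coding genes, H2AK121ub was called on 11 and H3K27me3 on 6. The latter were NRT1.1, the dual-affinity transporter and nitrate sensor, with 58.4% of its body under H3K27me3, NRT1.5, which loads nitrate into the xylem, with 52.3%, NRT1.7, which moves nitrate out of old leaves, with 100%, AT1G52190 with 99.6%, and NRT1.8 and AT2G26690, which had it in the upstream window alone.

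All 6 genes of nitrate reduction and ammonium assimilation were only-H2AK121ub, beside 43.9% of all protein coding genes. Among them were NIA1 and NIA2, the nitrate reductases, with H2AK121ub over 100% and 87.9% of their bodies, and NIR1, nitrite reductase, with 34.0%. Of 18 regulators, 15 carried H2AK121ub, beside 68.1% of all protein coding genes, and 4 also H3K27me3, beside 24.2% with both marks. The 4 were HRS1, a NIGT1-type repressor, AT3G25790, AGL44 (ANR1), a MADS factor of lateral root growth, and LBD38, a repressor of nitrate genes, which had H3K27me3 upstream alone. NLP7, the master nitrate response factor, and TCP20 and CIPK8 carried neither mark, as did 26.9% of all protein coding genes. Among the 6 AMT ammonium transporters, 3 carried both marks, 2 were only-H2AK121ub and AMT1;5 was only-H3K27me3. These classes held 24.2%, 43.9% and 4.93% of all protein coding genes. The 3 AMT genes with both marks were AMT1;3, AMT1;2 and AMT2. H3K27me3 covered 100% of the body of AMT1;3 and 57.2% of that of AMT1;2. In AMT2 it lay in the upstream window alone, over 41.2% of it. The median H3K27me3 body cover was 82.4% in NRT2, 28.6% in AMT and 0% in the NPF, assimilation and regulator lists as well as over all protein coding genes. That of H2AK121ub was 88.3% in NRT2, 81.4% in AMT, 60.8% in the regulators, 58.0% in NPF, 29.6% in the assimilation list and 15.8% over all protein coding genes.

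**Figure D5:**
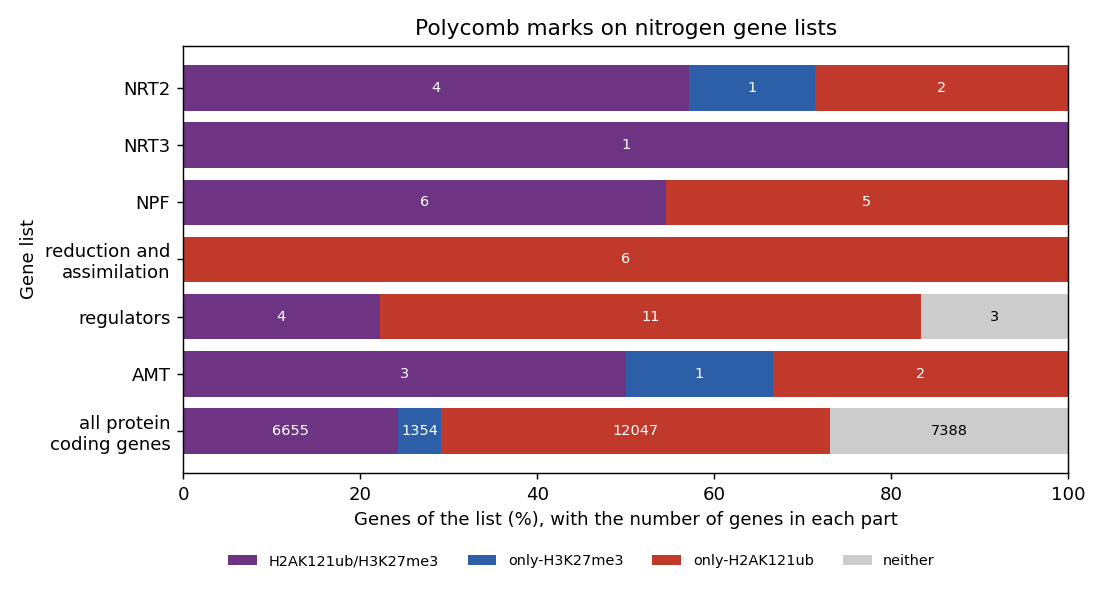
Share of genes in each mark class, in percent, for the NRT2 genes, 5 other nitrogen gene lists and all protein coding genes, with the number of genes written in each part of the bar. Both marks are on 4 of 7 NRT2, 6 of 11 NPF and 3 of 6 AMT genes, and on none of the 6 reduction and assimilation genes, beside 24.2% of all protein coding genes.

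For each NRT2 gene, the list gene most like it was taken as the one with the smallest sum of differences in 4 covers, of each mark over the body and over 750 bp upstream, among 42 genes. NRT2.4 was nearest to AT3G25790, with a sum of 1.09 percentage points, NRT2.7 to AT1G25550 with 3.14, and NRT2.5 to GTR2, a glucosinolate transporter gene of the NPF family, with 7.70. NRT2.1 was nearest to HRS1 with 32.1, NRT2.2 to its partner gene NRT3.1 with 35.5 and NRT2.3 to AMT1;2 with 39.0. The first 3 sums are small, and the latter 3 are large enough that the likeness is loose. NRT2.6 had no single nearest gene, because the genes with neither mark were tied at 49.0.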

How the data were processed

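The authors made the peak positions, and the deposited files list them as chromosome, start and end with no score, fold or signal. According to the study's methods, the authors aligned reads with Bowtie (build TAIR10). Peak calling per wild-type replicate used MACS2 with its defaults and an input control, and bedtools then intersected replicates. Versions are not given in the sources used here. These lists do not give the depth of a library, and peaks per replicate cannot be compared.

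Starts were converted to count from 1. Peaks were set against RefSeq TAIR10.1; every peak ended within its chromosome. Genes were marked when a peak overlapped the body or 750 bp upstream by at least 1 bp; the study's CPM filter on genes was not applied, since the lists hold no signal. Cover was the percentage of bases under peaks, with 5 kb flanks described. Of 50 listed loci, 49 were matched; 1 was not used. Shares of all genes for exon 1, the 5′ untranslated region and gene ends were added after the member values were seen. The members and lists were chosen with earlier results of these data known. Named were all members and their peaks, NRT3.1, the list genes with H3K27me3 and the nearest list genes in cover; NIA1, NIA2, NIR1, NLP7, TCP20 and CIPK8 were named after their values were seen. Proteins were aligned globally (Biopython 1.88, BLOSUM62). Interval functions were tested on simulated data. Alternatives were body alone, 1500 bp upstream, overlaps of 100 or 200 bp, dropping peaks under 200 bp, joining peaks across gaps up to 500 bp, other block limits, coding sequence alone and 10 kb flanks. Python 3.11.15 was used.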

Additional observations from a re-analysis of the deposited data

How the results depend on the processing

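The mark class of each of the 7 genes was the same under all 6 alternatives to the gene rule, 42 combinations with 0 changes of class. Each call rested on a peak with at least 659 bp in the gene body, so these settings could hardly change one. With windows of 1500 bp upstream, H2AK121ub cover of the NRT2.1 and NRT2.2 block was 54.1%, and that of the NRT2.4 and NRT2.3 block 62.1% for H2AK121ub and 73.1% for H3K27me3. Without upstream windows the latter block had 55.5% and 68.5%. These shifts come from the window itself. Over the coding sequence alone, H2AK121ub cover was 67.4% in NRT2.1, 45.5% in NRT2.5 and 97.7% in NRT2.3. With flanks of 10 kb in place of 5 kb, H2AK121ub cover beside NRT2.6 was 14.8% in place of 0% and beside NRT2.3 50.9% in place of 14.2%. No paired analysis was possible because only intersected peaks of the replicates are listed, so neither a block by replicate number nor leaving out a replicate could be run. A missing call may reflect depth, which the lists do not hold.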

Other observations

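The ammonium transporter genes AMT1;5 and AMT1;3 form another adjacent pair of paralogs on chromosome 3 (chr3:8801400-8808210 with the upstream windows), both on the minus strand. An H3K27me3 peak covered 100% of this block of 6811 bp, as in the NRT2.1 and NRT2.2 block, while H2AK121ub covered 17.3%. That H2AK121ub lay over 60.6% of the body of AMT1;3 and on no base of AMT1;5 or of the 2628 bp spacer. The pair was looked at after the list values were seen.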
